A study of Mus musculus with 16 samples.

Results

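The genes described here encode the vascular endothelial growth factor (VEGF) family: the ligands Vegfa, Vegfb, Vegfc and Pgf, the receptor tyrosine kinases Kdr, Flt1 and Flt4, and the co-receptors Nrp1 and Nrp2. They were chosen by name, with earlier results of these data known, and all 9 were found among the 25791 gene symbols of the deposited table. All 9 also passed the filter for testing, at least 1 FPKM (fragments per kilobase of transcript, scaled to the mapped fragments of the library) in at least 7 of the 16 libraries. Each library holds RNA of glomeruli that had been isolated from 1 kidney with perfused iron and a magnet. In 7 libraries the mice (genotype eNOS-/-//db/db) had received the drugs that block the renin-angiotensin-aldosterone system (RAAS), lisinopril, which inhibits angiotensin-converting enzyme, at 20 mg/day, and losartan, which blocks the angiotensin II receptor, at 30 mg/day. The drugs were given in drinking water, begun at 10 to 12 weeks of age and continued to 26 weeks. The other 9 libraries came from untreated mice of the same eNOS-/-//db/db genotype, for which the labels give no separate age. Every mouse of both groups therefore had diabetes from the defective leptin receptor and lacked endothelial nitric oxide synthase, on a standard diet, and mice with intact eNOS or without diabetes were not analysed here. The labels do not say sample by sample that each library is a separate mouse, so the p-values measure the spread between libraries, which may be technical.

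VEGF-A is the main growth and survival factor of blood vessel endothelium. In the glomerulus it is made largely by podocytes, on the outer side of the filter, and it acts on Kdr on the fenestrated endothelium of the capillary loops. Flt1 binds VEGF-A tightly but signals weakly, and a shortened form of it is secreted and traps the ligand. Nitric oxide made by eNOS is among the signals that follow activation of Kdr, and all of these mice lack that enzyme.

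The libraries of each group varied in their marker levels. Podocyte markers had mean levels of 6.11 to 7.35 on the log2(FPKM + 1) scale in RAAS-blocked libraries and 6.32 to 7.48 in untreated libraries. Endothelial markers had mean levels of 6.93 to 7.53 in RAAS-blocked libraries and 6.91 to 7.91 in untreated libraries. Of 18 such markers 15 (83.3%) were lower on average in RAAS-blocked mice, beside 55.3% of all tested genes, and 0 passed an unadjusted p of 0.05. Proximal tubule markers had a median level of 3.29 and a highest of 4.69 in RAAS-blocked libraries, against a median of 2.24 and a highest of 5.36 in untreated libraries. Thick limb and distal markers had a median level of 5.79 and a highest of 7.26 in RAAS-blocked libraries. Their median was 6.17 and their highest 7.74 in untreated libraries. The mean level of 682 genes with a transcript of at least 8000 bases, minus that of 2783 genes with none over 2000 bases, is used below as a transcript length measure. It was -0.83 ± 0.23 (SD, n = 7) in RAAS-blocked libraries and -0.84 ± 0.12 (SD, n = 9) in untreated libraries. RAAS-blocked replicate 4, which had the fewest symbols above 0 (16919, against 17993 to 18613 in the others), had the highest value, -0.42, and RAAS-blocked replicate 6 the lowest, -1.10. This measure was chosen after the values had been seen. Absolute depth is unknown, because the table gives no counts.

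Kdr and Vegfa were the most abundant of the 9 genes. Over all 16 libraries the mean levels were 339 FPKM for Kdr, 319 FPKM for Vegfa, 195 FPKM for Nrp1 and 84.9 FPKM for Flt1. Flt4 followed at 29.3 FPKM, Nrp2 at 23.2 FPKM, Vegfb at 21.7 FPKM, Vegfc at 12.5 FPKM and Pgf at 2.98 FPKM. FPKM is a level per length, but several of these levels still moved with the transcript length measure, so the order is approximate. Nrp1 exceeded Flt1, Flt1 exceeded Flt4 and Vegfc exceeded Pgf in 16 of 16 libraries each. The other neighbours in this order did not differ beyond 1 SD of their log2 ratio within libraries. For Kdr against Vegfa that ratio was 0.09 ± 0.80 (SD, n = 16), and Kdr was the higher in 3 of 7 RAAS-blocked and 7 of 9 untreated libraries. Taken as Vegfa to Kdr, it had an r of -0.61 and a rho of -0.74 with the transcript length measure. The permutation p was 0.014 for r and 0.0014 for rho (adjusted p = 0.0665 and 0.00665 over 19 relations). Figf, the older symbol of the VEGF-D gene and no member of the set, was at 43.5 ± 19.6 FPKM in RAAS-blocked libraries and 30.4 ± 14.1 FPKM in untreated libraries (log2 difference 0.46 ± 0.33 SE, limma adjusted p = 0.887). It was named after its values had been seen.

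None of the 9 genes passed the test between the groups. With limma on log2(FPKM + 1), 0 of 9 had a Benjamini-Hochberg adjusted p under 0.05, against 2 of 13286 genes tested (0.0151%). At an unadjusted p under 0.05 there were 2 of 9, Kdr and Flt4, both lower, against 3.42% of all tested genes lower and 2.71% higher at that level (6.13% in all). The groups overlapped for 9 of 9, and 0.0602% of all tested genes had groups that did not overlap. An exact Wilcoxon test called 0 members, with 1 at an unadjusted p under 0.05. At these group sizes its smallest possible p cannot pass over 13286 genes when so few have groups that do not overlap. That 0 is therefore no separate evidence. Of the 9 mean log2 levels, 7 were lower (77.8%) and 2 higher in RAAS-blocked mice, beside 55.3% lower over all tested genes. The median log2 difference of the 9 was -0.13, beside -0.02 over all tested genes. The library identifiers run in 1 unbroken block per group, so anything done in that order and the treatment cannot be told apart. In RNA from whole glomeruli, fewer cells of a type and less RNA per cell cannot be told apart either.

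**Figure D1:**
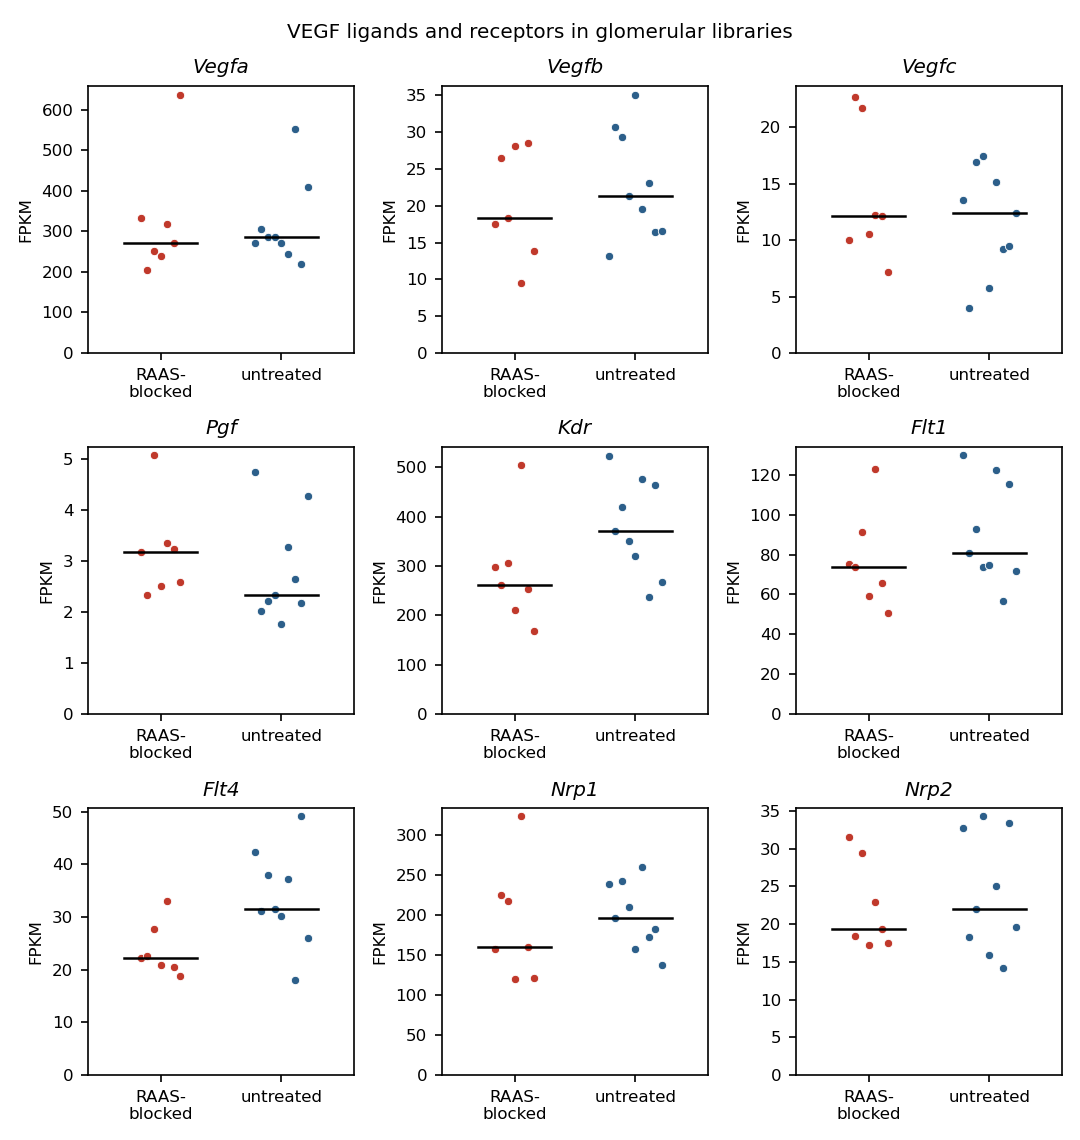
FPKM of each of the 9 genes in the 7 RAAS-blocked and 9 untreated libraries, with 1 point per library and a line at the group median. For Kdr 6 of 7 RAAS-blocked libraries lie below the untreated median of 371 FPKM, and the groups overlap for every gene.

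Among the ligands, Vegfa differed between the groups by less than its spread within them. It was at 204 FPKM (lowest), 272 FPKM (median) and 637 FPKM (highest) in RAAS-blocked libraries, and at 219, 286 and 553 FPKM in untreated libraries. The highest value in each group, replicate 6 in both, belonged to the library with the highest podocyte marker level of its group, and the rest lay between 204 and 410 FPKM. The means were 322 ± 146 FPKM (SD, n = 7) in RAAS-blocked and 316 ± 103 FPKM (SD, n = 9) in untreated libraries. Vegfa had a log2 difference of -0.01 ± 0.22 SE, with a 95% interval of -0.48 to 0.46 and a limma adjusted p of 0.993. Its sign turned under scaling to the upper quartile (0.01) and under quantile normalization (0.04).

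Vegfa levels followed the podocyte markers. Across 16 libraries the Pearson r between Vegfa and the mean level of 13 podocyte markers was 0.92 (permutation p = 1.0e-05, the smallest that the permutations can give, adjusted p = 0.00018 over 72 relations), and Spearman's rho was 0.84 (permutation p = 0.00012). The r was 0.96 within the RAAS-blocked group and 0.92 within the untreated group, and 0.80 without the 2 libraries farthest from the median marker level. The 13 leave out Podxl, for which the table lists 0 in all 16 libraries. Relative to Nphs1, which encodes nephrin of the podocyte slit diaphragm, Vegfa was at a log2 ratio (the difference of log2(FPKM + 1) within a library) of 0.31 ± 0.26 (SD, n = 7) in RAAS-blocked and 0.30 ± 0.12 (SD, n = 9) in untreated libraries. That difference of 0.02 did not pass (exact permutation p = 0.866, two-sided, adjusted p = 0.866 over 6 ratios). Nphs1 itself had means of 257 FPKM in RAAS-blocked and 255 FPKM in untreated libraries (limma adjusted p = 0.989). The genes whose levels were most like Vegfa after centring within groups were Sdc4 (r = 0.97), Enpep (r = 0.96) and Tmem150c (r = 0.96), over 16 libraries.

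Vegfb, a ligand of Flt1, varied within each group and did not separate them. It was at 9.49 FPKM (lowest), 18.4 FPKM (median) and 28.5 FPKM (highest) in RAAS-blocked libraries, and at 13.2, 21.3 and 35.0 FPKM in untreated libraries. The lowest value of all was in RAAS-blocked replicate 4, and 3 untreated libraries exceeded every RAAS-blocked one. The log2 difference was -0.18 ± 0.24 SE (limma adjusted p = 0.934), and with 1 library left out it ran from -0.28 without RAAS-blocked replicate 5 to -0.03 without RAAS-blocked replicate 4. Vegfb levels went with proximal tubule markers across libraries, with a Pearson r of 0.74 (permutation p = 0.0010, adjusted p = 0.0065) and a rho of 0.78 (permutation p = 0.00057). The r was 0.71 within the RAAS-blocked and 0.83 within the untreated group, and 0.68 without the 2 libraries farthest from the median marker level. Without untreated replicates 1 and 4, which had the highest tubule marker levels, it was 0.64 with an adjusted p of 0.072. Eno1 (enolase, r = 0.98) and the mitochondrial carrier genes Slc25a11 (r = 0.97) and Slc25a39 (r = 0.96) had the group-centred levels most like it.

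Vegfc and Pgf were the least abundant ligands. Vegfc, the ligand of Flt4 in lymphatic growth, was at 7.19 FPKM (lowest), 12.2 FPKM (median) and 22.7 FPKM (highest) in RAAS-blocked libraries, and at 4.01, 12.4 and 17.5 FPKM in untreated libraries. RAAS-blocked replicates 1 and 2, at 22.7 and 21.7 FPKM, exceeded every untreated library. Untreated replicates 1 and 4, at 4.01 and 5.79 FPKM, lay below every RAAS-blocked one. For Vegfc the log2 difference was 0.25 ± 0.29 SE (limma adjusted p = 0.931), 0.10 without untreated replicate 1, 0.12 without RAAS-blocked replicate 1 and -0.03 without untreated replicates 1 and 4. Its r of 0.64 with smooth muscle markers (rho 0.48, permutation p = 0.0078 for r and 0.064 for rho, adjusted p = 0.047 for r) rested on the 2 most extreme libraries, since it was 0.16 without them. Ccdc42 (r = 0.97), Sorbs2 (r = 0.93) and Col8a1 (r = 0.92) had levels most like Vegfc.

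Pgf, placental growth factor, which binds Flt1 and not Kdr, was at 2.33 FPKM (lowest), 3.18 FPKM (median) and 5.07 FPKM (highest) in RAAS-blocked libraries, and at 1.77, 2.34 and 4.74 FPKM in untreated libraries. In 6 of 7 RAAS-blocked libraries it lay above the untreated median, and 4 of 9 untreated libraries lay below the lowest RAAS-blocked one. Its log2 difference, which this scale understates at so low a level, was 0.14 ± 0.16 SE (limma adjusted p = 0.931), and 0.05 without RAAS-blocked replicate 2, the library at 5.07 FPKM. Tmem81 (r = 0.84), Tcf12 (r = 0.81) and Smap1 (r = 0.81) had levels most like it.

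The promoters of Kdr, Flt1 and Flt4 are shown because these receptor kinases varied together across the libraries, with r of 0.88 to 0.95. They are the 250 bases before the start that the RefSeq table, build GRCm38.p6, gives for each gene. That start lies 617 bases from the outer end of the annotated gene for Kdr, 427 for Flt1 and 0 for Flt4. A RefSeq promoter was matched for 9 of 9 members. Capitals mark GGAA, the core bound by ETS factors, on either strand (TTCC on the strand shown).
Kdr, chr5:75978456-75978705, minus strand: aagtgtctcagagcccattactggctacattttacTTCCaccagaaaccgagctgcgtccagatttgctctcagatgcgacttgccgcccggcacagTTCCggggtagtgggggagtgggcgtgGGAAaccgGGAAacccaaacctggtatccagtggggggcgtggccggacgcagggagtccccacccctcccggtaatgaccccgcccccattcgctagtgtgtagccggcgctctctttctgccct
Flt1, chr5:147726012-147726261, minus strand: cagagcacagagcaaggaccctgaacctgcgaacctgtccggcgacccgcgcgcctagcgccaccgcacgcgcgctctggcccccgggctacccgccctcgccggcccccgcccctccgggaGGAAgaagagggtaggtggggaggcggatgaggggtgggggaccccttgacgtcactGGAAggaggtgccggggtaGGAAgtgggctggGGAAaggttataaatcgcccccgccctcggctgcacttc
Flt4, chr11:49609429-49609678, plus strand: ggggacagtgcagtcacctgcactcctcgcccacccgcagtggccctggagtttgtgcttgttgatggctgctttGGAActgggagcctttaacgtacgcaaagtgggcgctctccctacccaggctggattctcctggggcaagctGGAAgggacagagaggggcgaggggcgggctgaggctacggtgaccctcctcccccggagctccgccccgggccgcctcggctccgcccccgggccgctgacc
Kdr and Flt1 held 4 copies of GGAA each and Flt4 held 2, and 93.4% of all 32851 promoters of this length hold at least 1. GGGCGG, the box bound by Sp1, occurred 2 times in Kdr, 3 times in Flt1 and 3 times in Flt4 over both strands, and it is found in 32.7% of all promoters. Of the members not printed, Vegfa held 6 copies of GGAA, Nrp1 held 4, Vegfb, Vegfc and Nrp2 1 each and Pgf 0. GGGCGG occurred 5 times in Nrp2, 4 times in Vegfb, 2 times each in Vegfa, Vegfc and Pgf and 1 time in Nrp1. Both motifs therefore also occur outside the receptors that varied together. GGGCGG and GGAA can overlap by their G bases, and a match is a description and not a site of binding.

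The receptor kinases had lower means in RAAS-blocked mice. Kdr, the main signalling receptor for VEGF-A, was at 168 FPKM (lowest), 261 FPKM (median) and 505 FPKM (highest) in RAAS-blocked libraries, and at 237, 371 and 524 FPKM in untreated libraries. In RAAS-blocked mice 6 of 7 libraries lay below the untreated median and between 168 and 305 FPKM, and RAAS-blocked replicate 4 stood apart at 505 FPKM. The means were 286 ± 108 FPKM (SD, n = 7) in RAAS-blocked and 381 ± 97.6 FPKM (SD, n = 9) in untreated libraries, a ratio of 0.749. For Kdr the log2 difference was -0.45 ± 0.21 SE, with a 95% interval of -0.89 to -0.01, an unadjusted p of 0.047 and a limma adjusted p of 0.810. With 1 library left out it ran from -0.60 without RAAS-blocked replicate 4 (unadjusted p = 0.0053, limma adjusted p = 0.488) to -0.33 without RAAS-blocked replicate 6 (unadjusted p = 0.118, adjusted p = 0.765). The unadjusted p stayed under 0.05 in 4 of these 16 fits.

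Flt4, the receptor for VEGF-C and VEGF-D, was at 18.7 FPKM (lowest), 22.3 FPKM (median) and 33.1 FPKM (highest) in RAAS-blocked libraries, and at 18.1, 31.6 and 49.1 FPKM in untreated libraries. Again 6 of 7 RAAS-blocked libraries lay below the untreated median, 4 untreated libraries exceeded every RAAS-blocked one, and 1, untreated replicate 6, lay below all of them. For Flt4 the log2 difference was -0.47 ± 0.17 SE, with a 95% interval of -0.83 to -0.11, an unadjusted p of 0.014 and a limma adjusted p of 0.716. With 1 library left out it ran from -0.57 to -0.40, and the unadjusted p was under 0.05 in 16 of 16 fits. Flt4 is best known as a marker of lymphatic endothelium, and it is also found on fenestrated capillaries. Of 6 lymphatic markers Lyve1 did not exceed 0.944 FPKM in RAAS-blocked or 1.17 FPKM in untreated libraries. Prox1, the regulator of lymphatic identity, did not exceed 1.59 FPKM in RAAS-blocked or 2.12 FPKM in untreated libraries, Reln and Mmrn1 stayed below 0.17 FPKM in all 16, and Ccl21a was listed at 0. The sixth, Pdpn, is also a podocyte gene and was at 30.9 to 195 FPKM over both groups. Podxl, a podocyte marker, was likewise listed at 0 in all 16 libraries, so the 0 of Ccl21a is not read as absence.

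Flt1 was lower on average to a smaller extent. It was at 50.6 FPKM (lowest), 73.9 FPKM (median) and 123 FPKM (highest) in RAAS-blocked libraries, and at 56.9, 80.9 and 130 FPKM in untreated libraries. The log2 difference was -0.24 ± 0.19 SE, with a 95% interval of -0.65 to 0.17 and a limma adjusted p of 0.901. It was -0.36 without RAAS-blocked replicate 4 and -0.15 without RAAS-blocked replicate 6. The groups overlapped over almost their whole range, and the table has 1 value per gene, so the membrane and secreted forms of Flt1 cannot be told apart.

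The co-receptors did not separate the groups. Nrp1, which binds VEGF-A and the secreted semaphorins, was at 120 FPKM (lowest), 160 FPKM (median) and 323 FPKM (highest) in RAAS-blocked libraries, and at 137, 196 and 259 FPKM in untreated libraries. RAAS-blocked libraries held both the lowest and the highest values, 120 FPKM in replicate 3 and 323 FPKM in replicate 4. The log2 difference was -0.13 ± 0.20 SE (limma adjusted p = 0.942), -0.27 without RAAS-blocked replicate 4, -0.04 without RAAS-blocked replicate 3 and -0.01 with endothelial markers in the model. Nrp2, which also binds VEGF-C, was at 17.3 FPKM (lowest), 19.4 FPKM (median) and 31.5 FPKM (highest) in RAAS-blocked libraries, and at 14.2, 22.0 and 34.4 FPKM in untreated libraries, with a log2 difference of -0.07 ± 0.20 SE (limma adjusted p = 0.966). Its sign turned without untreated replicate 3 (8.96e-04) and with endothelial markers in the model (0.12).

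**Figure D2:**
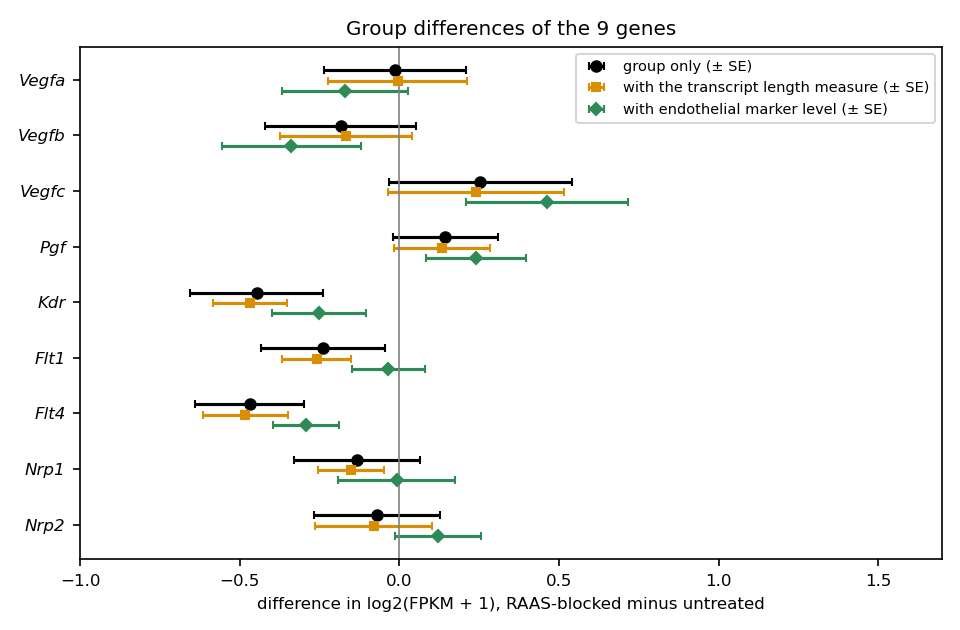
Difference in log2(FPKM + 1), RAAS-blocked minus untreated, with its standard error for each of the 9 genes, from the model with group alone, with the transcript length measure added and with the endothelial marker level added. Kdr is at -0.45, -0.47 and -0.25 and Flt4 at -0.47, -0.48 and -0.29 in the 3 models, and none has an adjusted p under 0.05.

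Receptor differences were read beside the endothelial marker level and the transcript length measure, since both moved with the receptors. With the mean level of 18 endothelial markers as a covariate, the log2 difference of Kdr was -0.25 ± 0.15 SE (unadjusted p = 0.111, limma adjusted p = 0.465). That of Flt4 was -0.29 ± 0.10 SE (unadjusted p = 0.012, adjusted p = 0.244) and that of Flt1 -0.04. The marker Emcn, endomucin of capillary endothelium, was itself at 550 ± 130 FPKM (SD, n = 7) in RAAS-blocked and 704 ± 171 FPKM (SD, n = 9) in untreated libraries. Within libraries the log2 ratio of Kdr to Emcn was -0.99 ± 0.30 (SD, n = 7) in RAAS-blocked and -0.89 ± 0.26 (SD, n = 9) in untreated libraries (difference -0.10, exact permutation p = 0.507, adjusted p = 0.609 over 6 ratios). That of Flt1 to Emcn differed by 0.11 (exact permutation p = 0.338, adjusted p = 0.506). With the transcript length measure as a covariate, the difference of Kdr was -0.47 ± 0.12 SE (unadjusted p = 0.0010, limma adjusted p = 0.254) and that of Flt4 -0.48 ± 0.13 SE (unadjusted p = 0.0024, adjusted p = 0.304). With both covariates they were -0.36 ± 0.10 SE (adjusted p = 0.160) for Kdr and -0.33 ± 0.10 SE (adjusted p = 0.179) for Flt4. The 2 models with the length measure were added after the data had been seen.

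Flt1 relative to Kdr was higher in RAAS-blocked libraries, the 1 of 6 ratios that passed. The ratio of Flt1 to Kdr in FPKM was 0.244 (lowest), 0.282 (median) and 0.301 (highest) in RAAS-blocked libraries, and 0.210, 0.240 and 0.270 in untreated libraries. The groups overlapped, with the RAAS-blocked values at the upper end. On the log2 scale the ratio was -1.85 ± 0.12 (SD, n = 7) in RAAS-blocked and -2.06 ± 0.12 (SD, n = 9) in untreated libraries, a difference of 0.21 (exact permutation p = 0.0048, two-sided over 11440 splits, adjusted p = 0.029 over 6 ratios). The ratio had an r of -0.13 with the transcript length measure (rho -0.11, permutation p = 0.64 for r and 0.69 for rho), which was -0.50 within the RAAS-blocked and 0.24 within the untreated group. The longest annotated transcripts of Flt1 and Kdr have 6895 and 5924 bases. The direction held without any 1 library, with differences of 0.18 to 0.24. It no longer passed, with an adjusted p between 0.050 and 0.067, when untreated replicate 1, 2, 3 or 4 or RAAS-blocked replicate 1, 2, 3 or 6 was left out, and it was 0.094 without untreated replicates 1 and 4 together. Nrp1 to Kdr had a log2 ratio of -0.60 ± 0.23 (SD, n = 7) in RAAS-blocked and -0.92 ± 0.25 (SD, n = 9) in untreated libraries (difference 0.32, exact permutation p = 0.022, adjusted p = 0.065). Vegfa to Kdr was at 0.15 ± 0.84 in RAAS-blocked and -0.28 ± 0.76 in untreated libraries (difference 0.43, exact permutation p = 0.310, adjusted p = 0.506), and that difference was 0.14 without RAAS-blocked replicate 6. Flt1 to Kdr, Nrp1 to Kdr and Vegfa to Kdr share Kdr, which had the lower mean in RAAS-blocked libraries. Their differences are therefore not independent. How often ratios of other genes to Kdr differ by as much was not tested.

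**Figure D3:**
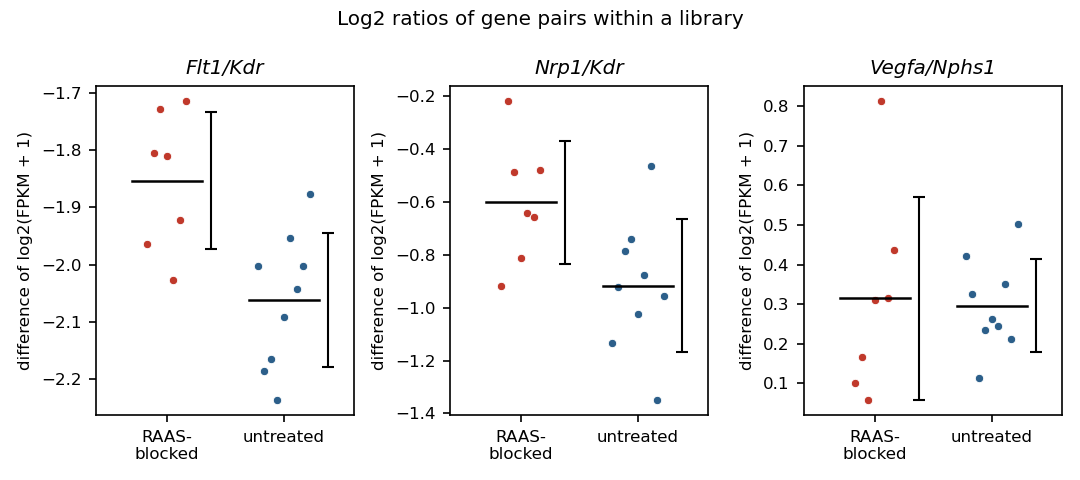
Log2 ratios of Flt1 to Kdr, Nrp1 to Kdr and Vegfa to Nphs1 within each library, with the group mean and, beside it, a bar of 1 SD for the 7 RAAS-blocked and 9 untreated libraries. For Flt1 to Kdr the mean is -1.85 in RAAS-blocked and -2.06 in untreated libraries, and for Vegfa to Nphs1 it is 0.31 in RAAS-blocked and 0.30 in untreated libraries.

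Kdr, Flt1 and Flt4, the receptors whose promoters are printed above, varied together from library to library in both groups. The Pearson r was 0.95 for Kdr with Flt1 and 0.91 for Kdr with Flt4, with the rho at 0.94 for each, and both relations had a permutation p of 1.0e-05, the smallest that the permutations can give, and an adjusted p of 0.00018 for r. For Flt1 with Flt4 the r was 0.88 (permutation p = 1.0e-05, adjusted p = 0.00018) and the rho 0.88 (permutation p = 3.0e-05). Within the RAAS-blocked group these values were 0.98, 0.93 and 0.98, and within the untreated group 0.96, 0.93 and 0.90, for Kdr with Flt1, Kdr with Flt4 and Flt1 with Flt4 in that order. Without the 2 libraries farthest from the median of the first-named gene they were 0.93, 0.89 and 0.88. Nrp1 went with Kdr (r = 0.81, rho = 0.77, permutation p = 0.00016 for r and 0.00060 for rho, adjusted p = 0.0016 for r) and with Flt1 (r = 0.79, rho = 0.77, permutation p = 0.00022 for r and 0.00067 for rho, adjusted p = 0.0020 for r). Of 72 relations computed, 36 between members and 36 between members and marker levels, 12 passed an adjusted p of 0.05 by r (13 by rho), 5 of them between members. No relation between Vegfa and a receptor passed: for Vegfa with Kdr the r was -0.49 (rho -0.24, permutation p = 0.054 for r and 0.38 for rho, adjusted p = 0.162 for r). It was -0.33 within the RAAS-blocked group, -0.86 within the untreated group and -0.01 without the 2 libraries farthest from the median Vegfa level.

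**Figure D4:**
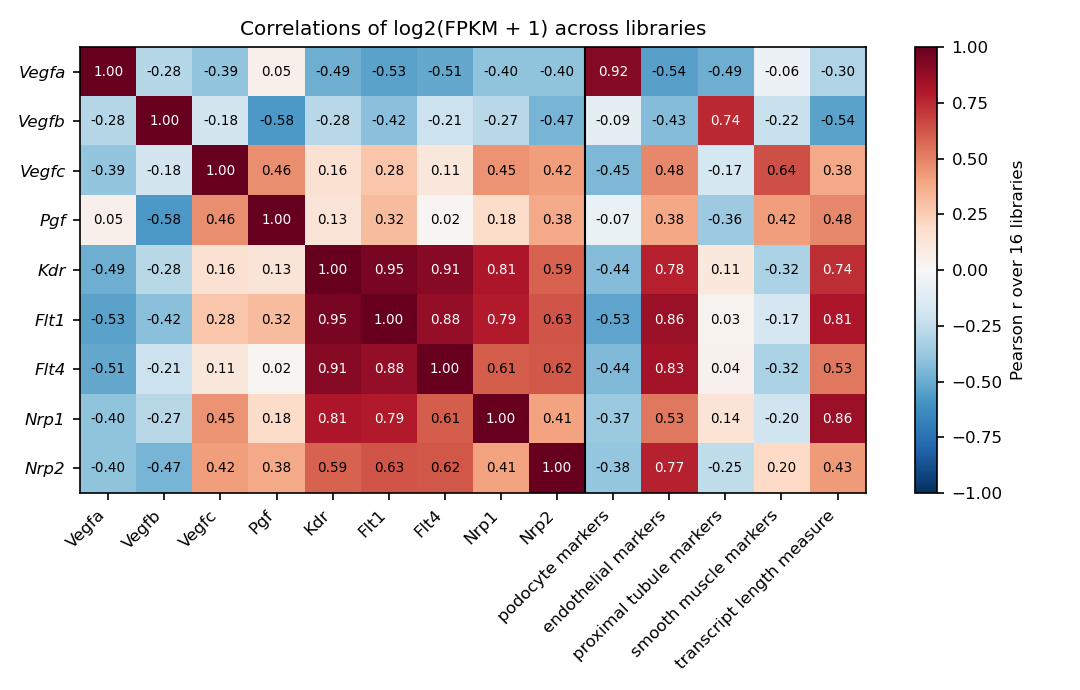
Pearson r of log2(FPKM + 1) over 16 libraries between the 9 genes, and between each gene and the mean level of 4 marker lists and the transcript length measure. Kdr, Flt1 and Flt4 form a block with r of 0.88 to 0.95, and Vegfa stands with the podocyte markers at 0.92.

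The same receptors followed endothelial markers and the transcript length measure. With endothelial markers the r was 0.78 for Kdr (rho 0.80, permutation p = 0.00048 for r and 0.00030 for rho), 0.86 for Flt1 (rho 0.84, permutation p = 3.0e-05 and 0.00012) and 0.83 for Flt4 (rho 0.86, permutation p = 9.0e-05 and 7.0e-05). Nrp2 had an r of 0.77 (rho 0.79, permutation p = 0.00075 and 0.00052), and all 4 had an adjusted p of at most 0.0054 for r. Without the 2 libraries farthest from the median marker level the r was 0.75, 0.83, 0.74 and 0.67 for Kdr, Flt1, Flt4 and Nrp2. With the transcript length measure the r was 0.86 for Nrp1 (rho 0.85, permutation p = 2.0e-05 and 0.00010), 0.81 for Flt1 (rho 0.88, permutation p = 9.0e-05 and 3.0e-05) and 0.74 for Kdr (rho 0.76, permutation p = 0.00092 and 0.00089). The adjusted p for r, over 19 relations with this measure, was 0.00038, 0.00086 and 0.0058 for Nrp1, Flt1 and Kdr, and the r without the 2 most extreme libraries was 0.75, 0.75 and 0.61. Flt4 had an r of 0.53 (rho 0.65, permutation p = 0.034 and 0.0078, adjusted p = 0.072 for r and 0.025 for rho). Within the RAAS-blocked group the r with this measure was 0.97 for Nrp1, 0.99 for Flt1, 0.96 for Kdr and 0.98 for Flt4, and within the untreated group 0.65 for Nrp1, 0.76 for Flt1, 0.72 for Kdr and 0.56 for Flt4. The difference between the groups in these r was not tested. Endothelial markers themselves had an r of 0.56 with it (rho 0.72, permutation p = 0.023 and 0.0019, adjusted p = 0.072 for r and 0.0072 for rho). The part of transcript length in the shared variation of the receptors was not tested beyond these values.

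**Figure D5:**
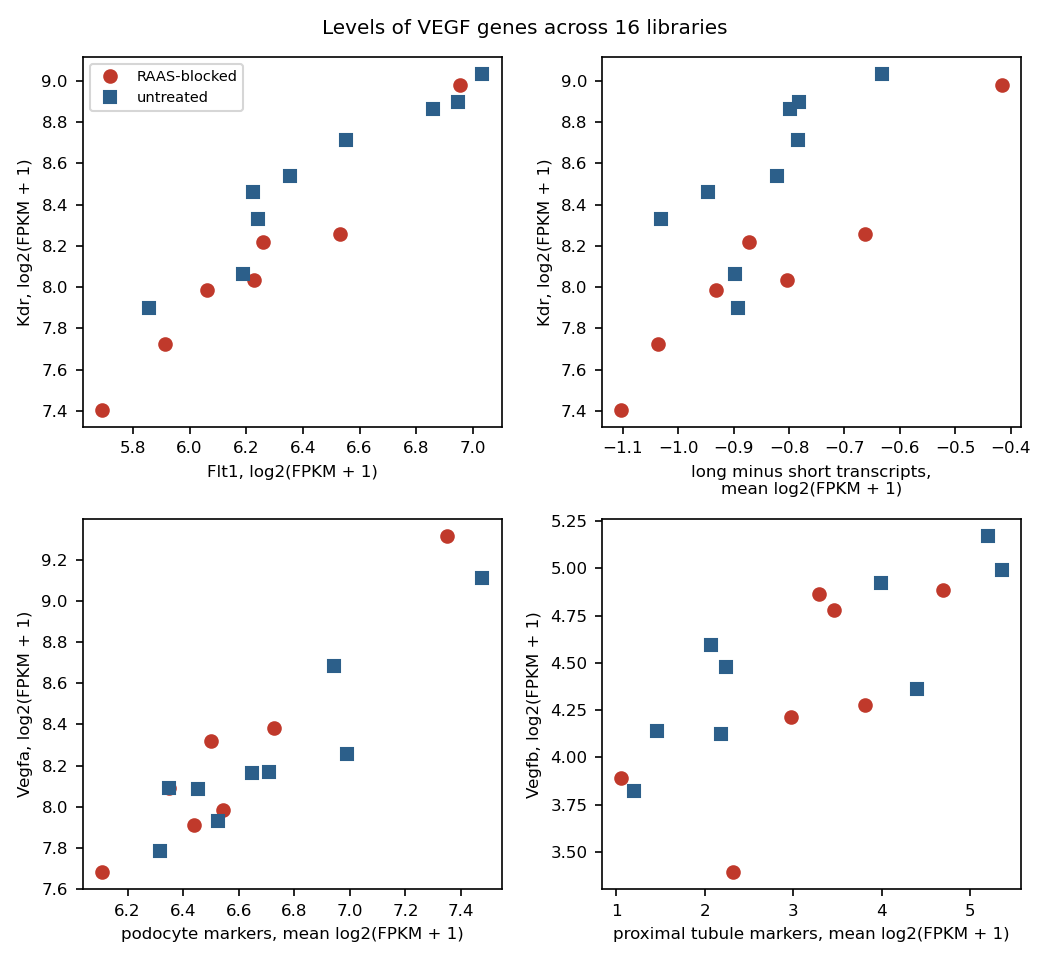
Levels on the log2(FPKM + 1) scale in each library, with RAAS-blocked libraries as circles and untreated libraries as squares. Kdr is plotted against Flt1 and against the transcript length measure, Vegfa against podocyte markers and Vegfb against proximal tubule markers, and the r over 16 libraries are 0.95, 0.74, 0.92 and 0.74.

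After centring within groups, Kdr was most like Ino80d (r = 0.96), Flt1 (r = 0.96) and Rc3h1 (r = 0.96), over 16 libraries. Flt1 was most like Dock9 (r = 0.97), Kdr (r = 0.96) and Trip12 (r = 0.96), and Flt4 like Cyyr1 (r = 0.93), Ep400 (r = 0.92) and Itsn2 (r = 0.91). Nrp1 was most like Phc3 (r = 0.95), Mga (r = 0.94) and Fndc3a (r = 0.93), and Nrp2 like Spred1 (r = 0.94), Arhgef7 (r = 0.92) and Swap70 (r = 0.92).

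Other genes of the pathway were read as lists, beside 55.3% of all tested genes with lower means and 6.13% at an unadjusted p under 0.05. Among 12 tested genes that control ligand production, mostly of oxygen sensing, 0 passed over all genes, with 8 lower and 4 higher means and a median log2 difference of -0.10. Egln3, a prolyl hydroxylase that marks hypoxia-inducible factors for removal and is itself induced by them, was at 8.65 ± 1.44 FPKM (SD, n = 7) in RAAS-blocked and 11.9 ± 1.83 FPKM (SD, n = 9) in untreated libraries (log2 difference -0.42 ± 0.11 SE, unadjusted p = 0.0010, limma adjusted p = 0.421). It was the 1 gene of this list (8.33%) at an unadjusted p under 0.05, a share near that of all tested genes. Its relative Egln1 (log2 difference -0.14 ± 0.07 SE, adjusted p = 0.817) and Stat3 (0.33 ± 0.17 SE, adjusted p = 0.820) came next. Among 19 genes for extracellular binders of VEGF and heparan sulfate, 13 means were lower and 6 higher with a median of -0.05, and 0 passed. At an unadjusted p under 0.05 there were 2 (10.5%), Hspg2 and Ndst1, both lower. Hspg2, perlecan of basement membranes, was at 21.8 ± 6.25 FPKM in RAAS-blocked and 30.0 ± 7.16 FPKM in untreated libraries (-0.46 ± 0.20 SE, adjusted p = 0.795). Ndst1 (-0.17 ± 0.08 SE, adjusted p = 0.810) and Ext2 (-0.18 ± 0.09 SE, adjusted p = 0.817), both enzymes of heparan sulfate synthesis, were the next in the list.

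Downstream genes did not pass either. Of 27 tested genes of receptor signalling, 20 means were lower and 7 higher with a median of -0.05. At an unadjusted p under 0.05 there was 1 lower, Pxn, and 1 higher, Pik3r1 (7.41% in all). Pxn, the focal adhesion protein paxillin, was at 48.4 ± 6.13 FPKM in RAAS-blocked and 58.4 ± 7.31 FPKM in untreated libraries (log2 difference -0.27 ± 0.09 SE, unadjusted p = 0.0076, limma adjusted p = 0.655). Pik3r1, a regulatory subunit of phosphoinositide kinase, was at 31.1 ± 8.12 FPKM in RAAS-blocked and 23.5 ± 4.33 FPKM in untreated libraries (0.36 ± 0.17 SE, adjusted p = 0.804), and Prkca had a difference of 0.38 ± 0.21 SE (adjusted p = 0.830). Of 21 genes known to respond to VEGF in endothelium, 12 means were lower and 9 higher with a median of -0.06. Dll4, the Notch ligand induced by VEGF-A, was at 14.4 ± 4.48 FPKM in RAAS-blocked and 21.3 ± 6.51 FPKM in untreated libraries (-0.53 ± 0.19 SE, unadjusted p = 0.014, limma adjusted p = 0.716). It was the 1 gene of this list (4.76%) at an unadjusted p under 0.05, a share below that of all tested genes. Hlx had a difference of -0.36 ± 0.18 SE (adjusted p = 0.817) and Angpt2, angiopoietin-2, one of 0.40 ± 0.21 SE (adjusted p = 0.830). Nos3, the gene targeted in these mice, was at 24.0 ± 6.54 FPKM in RAAS-blocked and 25.0 ± 10.6 FPKM in untreated libraries (0.01 ± 0.23 SE, adjusted p = 0.996), and since it sums reads over the gene it is no check of the targeted allele. Of 10 tested secreted semaphorins and plexins, partners of the neuropilins, 8 means were lower and 2 higher, with 0 at an unadjusted p under 0.05. Sema3g was the most abundant of those named, at 691 ± 222 FPKM in RAAS-blocked and 905 ± 310 FPKM in untreated libraries (-0.38 ± 0.21 SE, adjusted p = 0.830). Plxna1 had a difference of 0.19 ± 0.13 SE (adjusted p = 0.870) and Sema3b one of -0.25 ± 0.20 SE (adjusted p = 0.901). In the 5 pathway lists 0 genes passed an adjusted p of 0.05, and the lists were chosen with earlier results of these data known.

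Marker lists were read beside the same 55.3% of all tested genes with lower means and their median of -0.02. Endothelial markers had a median log2 difference of -0.21, led by Emcn (-0.35 ± 0.17 SE, limma adjusted p = 0.817), Ehd3 (-0.49 ± 0.24 SE, adjusted p = 0.817) and Tie1 (-0.31 ± 0.16 SE, adjusted p = 0.820), each as far from 0 as Flt1 or farther. Podocyte markers had a median of -0.15 with 11 of 13 means lower. Proximal tubule markers had a median of -0.03 with 9 of 11 means lower, and thick limb and distal markers one of -0.16 with 6 of 10 lower. Smooth muscle markers had a median of 0.41 with 7 of 8 means higher, among them Acta2 at 223 ± 40.4 FPKM in RAAS-blocked and 150 ± 62.5 FPKM in untreated libraries (0.69 ± 0.28 SE, adjusted p = 0.755). In that list 2 genes (25.0%), both higher, were at an unadjusted p under 0.05, beside 6.13% of all tested genes. Mesangial markers had a median of 0.32 with 7 of 8 means higher, and macrophage markers one of 0.49 with 9 of 9 means higher. None of these markers passed an adjusted p of 0.05.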

How the data were processed

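Glomerular RNA of 16 libraries, 7 from RAAS-blocked and 9 from untreated mice, was sequenced after Illumina TruSeq mRNA preparation, per the labels' protocols. The authors deposited 1 FPKM value per gene symbol and library. Among the tools in the submitters' processing notes are TopHat2 (2.0.8), Cuffdiff (2.2.1) and Cufflinks, without their roles. The sources used here do not give the build, annotation or use of strand, and depth is unknown.

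Values were tested as log2(FPKM + 1) with limma 3.58.1 in R 4.3.3 (group term, trended and robust variance, Benjamini-Hochberg at 0.05) over the 13286 genes that reached 1 FPKM in 7 or more libraries. The scale understates changes of low genes. Ratios, as differences of log2(FPKM + 1), were compared by exact permutation, and correlations by 100000 permutations, in Python 3.11.15. Lengths came from GENCODE transcripts (95.5% of tested genes matched), and promoters from RefSeq. Named genes are the 9 members, Nphs1, Emcn, Nos3, up to 3 genes of lowest p per list (given here for the 5 pathway lists and in part for markers) and 3 most similar genes per member. The fit was tried on simulated data with independent noise per gene. Those data lack the variation shared between genes seen here, so the trial does not show how the fit performs on these libraries. Alternatives covered pseudocount, filter, scaling, weights, variance model, replicate block, covariates and left-out libraries. The members and lists were chosen with earlier results of these data known.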

Additional observations from a re-analysis of the deposited data

Results flagged for a closer look

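In 30 groups of values (9 genes and 6 ratios in 2 groups), 4 had 1 library far from the rest by Dixon's criterion, each on the high side. Chance meets that criterion in about 1 group in 20 only where values are normal and groups independent. The genes were taken in FPKM and the ratios on the log2 scale. High values lie farther apart in FPKM than on the log2 scale, and the genes and ratios shared libraries. Vegfa was at 637 FPKM in RAAS-blocked replicate 6, against 333 FPKM in the next library of that group, and the log2 ratio of Vegfa to Kdr was 1.91 in the same library, against 0.19 in the next. That library had the highest podocyte marker level (7.35) and the lowest transcript length measure (-1.10) of the RAAS-blocked group. Kdr was at 505 FPKM in RAAS-blocked replicate 4, against 305 FPKM in the next, and that library had the highest transcript length measure of all 16 (-0.42). Pgf was at 5.07 FPKM in RAAS-blocked replicate 2, against 3.35 FPKM in the next. The causes were not tested.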

How the results depend on the processing

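No member was called under any of the alternatives run. The count of genes called over all genes, 2 with limma, was 1 with upper-quartile scaling, quantile normalization, a variance fit with neither trend nor robust estimate or the proximal tubule covariate, 11 with array weights, 6 with the endothelial covariate, 8 with the podocyte covariate and 0 with the exact Wilcoxon test (757 at an unadjusted p under 0.05). The 0 of the exact Wilcoxon test is no separate evidence, because its smallest possible p cannot pass with so few groups that do not overlap. The count with limma was 1 to 6 when 1 library was left out. With covariates added after seeing the data it was 6 (transcript length), 10 (transcript length and endothelial level) and 11 (transcript length, without RAAS-blocked replicate 4). The replicate block over numbers 0 to 6 gave 1 call, as did the same libraries unblocked, and same-numbered libraries had correlations of -0.28 to 0.43, with 1 of 7 treated libraries closest to its own number. Kdr, Flt1, Flt4, Nrp1 and Pgf kept their direction under the alternatives run, except that Pgf did not pass the filter of 5 FPKM and has no value there. The unadjusted limma p of Kdr was 0.068 with upper-quartile scaling, 0.119 with quantile normalization and 0.111 with the endothelial covariate. It was 0.0036 with array weights and 0.0069 with the podocyte covariate. By the exact Wilcoxon test the unadjusted p of Kdr was 0.071. With 1 library left out Kdr ran from -0.60 to -0.33, Flt4 from -0.57 to -0.40, Flt1 from -0.36 to -0.15, Nrp1 from -0.27 to -0.04 and Pgf from 0.05 to 0.22. Vegfa turned to 0.013 and 0.037 with upper-quartile and quantile scaling, to 0.14 with the podocyte covariate, and ran from -0.19 to 0.094 with 1 library left out. Vegfb turned to 0.072 with array weights, Vegfc to -0.029 without untreated replicates 1 and 4, and Nrp2 to 0.12 with the endothelial covariate, 0.13 with both covariates, 0.021 with the length covariate without RAAS-blocked replicate 4, and ran from -0.16 to 8.96e-04 with 1 library left out. With 1 library left out, the difference in log2 ratio ran from 0.18 to 0.24 for Flt1 to Kdr, from 0.25 to 0.37 for Nrp1 to Kdr, from 0.14 to 0.62 for Vegfa to Kdr and from -0.065 to 0.061 for Vegfa to Nphs1; without untreated replicates 1 and 4 it was 0.19 for Flt1 to Kdr, and its call was lost. The causes were not tested. The number of correlations past the threshold was 11 to 16, against 12. Depth cannot be stated from FPKM, which limits what can be said of Pgf.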
